A study of Papio anubis with 588 samples.

Results

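Lysosome and V-ATPase genes were followed in liver, skeletal muscle and adipose tissue of 99 captive olive baboons (Papio anubis) that changed from a diet low in cholesterol and fat to a diet high in both. The 39 genes are the rows of the deposited count table with the listed symbols, of 34178 genes in all, and all 39 were found. They were picked as a pathway and not by a measured value, although earlier results of these data were known. Each animal was biopsied after 2 years on the high cholesterol, high fat diet (HCHF) and, before it, at 0 years on the low cholesterol, low fat diet (LCLF). The labels name 1 species and the same diets for every animal, and give no genotype, sex or age. All libraries at 0 years were LCLF and all at 2 years HCHF, with no animal kept on LCLF among them. The diet and 2 years of age and calendar time therefore cannot be told apart in any difference between HCHF and LCLF libraries.

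Lysosomes are acidic organelles in which hydrolases break down lipids, proteins, glycans and nucleic acids delivered by endocytosis, phagocytosis and autophagy. The acidity is made by the V-ATPase, a rotary proton pump with a cytosolic V1 sector that hydrolyses ATP and a membrane V0 sector that carries the protons. Cholesteryl esters taken up with lipoproteins are split in the lysosome by the acid lipase LIPA, and the free cholesterol leaves through NPC2 and NPC1. TFEB, TFE3 and MITF are related transcription factors that bind a shared promoter motif of many lysosomal genes, and TFEB is held in the cytosol by mTORC1 when nutrients are plentiful. Macrophages are rich in lysosomes, and CD68, the gene used below as a macrophage measure, is itself a lysosomal membrane glycoprotein of the LAMP family.

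The data are whole-number read counts per gene in 570 libraries that passed the authors' quality control, of 588. Liver had 87 HCHF and 95 LCLF libraries, muscle had 98 HCHF and 96 LCLF libraries, and adipose tissue had 95 HCHF and 99 LCLF libraries, so that 84, 95 and 95 animals were sampled on both diets. Total counts ran between 6.507 M and 38.46 M per library (M, mega) with a median of 19.5 M. Animals were assigned to 2 sequencing batches from their expression, because the labels do not say which animals were in which batch. The 93 libraries of the 16 animals assigned to batch 1 had a median of 10.95 M. The 477 of the 83 animals assigned to batch 2 had 20.1 M. Each tissue carried the markers of its own cells. Hepatocyte markers took a median of 20.6% of counts in HCHF and 21.5% in LCLF liver, myocyte markers 22.7% in HCHF and 23.7% in LCLF muscle, and adipocyte markers 1.55% in HCHF and 1.53% in LCLF adipose tissue. In 6 animals of the liver set, 4 of muscle and 12 of adipose tissue a library had little of its own markers or held markers of another tissue, and counts are also given without these animals in doubt. Levels are given as CPM, counts set against library size and scaled between libraries of a tissue by the TMM method, which assumes that most genes do not differ. CPM is not corrected for gene length, so levels are compared between libraries and not between genes.

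On LCLF most lysosomal hydrolases were lower in muscle than in liver and adipose tissue. With TMM scaling TFEB and MITF were highest in muscle and lowest in liver. With total counts in place of TMM, MITF was higher in adipose tissue than in muscle. Differences between tissues of the same animal were tested by limma on log2 CPM, scaled over all LCLF libraries together. Of 37 members tested between liver and muscle, 26 were higher and 9 lower in liver (adjusted p under 0.05, Benjamini-Hochberg over all genes), beside 42.4% and 50.3% of all genes tested. CTSH, an aminopeptidase among the cathepsins, averaged 8.81 ± 0.24 log2 CPM in liver and 3.04 ± 0.49 in muscle (SD, n = 92 animals), a difference of 5.77 ± 0.06 (SE; adjusted p = 3.38e-97). CTSC, the peptidase that activates serine proteases of immune granules, differed by 4.52 ± 0.09 and CTSL, a cysteine endopeptidase, by 3.73 ± 0.03. All 3 were higher in liver in all 92 animals. The largest differences the other way were those of MITF (1.85 ± 0.47 log2 CPM in liver and 5.60 ± 0.64 in muscle, SD), TFEB (4.04 ± 0.30 in liver and 7.17 ± 0.28 in muscle) and ATP6V0C, a proteolipid of the V0 ring (6.30 ± 0.29 in liver and 7.22 ± 0.34 in muscle). None of the 92 animals had more of any of these 3 in liver than in muscle.

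Between liver and adipose tissue the members divided evenly, with 19 of 38 higher and 19 lower in liver, beside 48.4% and 44.4% of all genes. CTSH (2.87 ± 0.05, SE, n = 95 animals), CTSL (2.71 ± 0.03) and CTSZ, a carboxypeptidase (2.05), led on the liver side. MITF (-2.55 ± 0.07), CTSK, the collagen-cutting cathepsin best known from osteoclasts (-2.27 ± 0.07), and ASAH1, the acid ceramidase (-1.07), led on the adipose side. Between adipose tissue and muscle, 24 of 37 members were higher and 10 lower in adipose tissue, beside 45.5% and 48.4% of all genes. CTSC (3.44 ± 0.10, n = 96 animals), CTSK (3.25 ± 0.07) and LIPA (2.93 ± 0.05) were highest in adipose tissue against muscle, and TFEB (-2.41 ± 0.03), MITF (-1.19 ± 0.07) and LAMP2, a membrane glycoprotein needed for autophagy (-0.73), were lowest. With TMM scaling NPC1 was within 0.15 log2 CPM of equal in all 3 tissues. Of its 3 differences 2 did not pass the test (liver minus muscle 0.08 ± 0.07, adjusted p = 0.267; adipose minus muscle -0.09 ± 0.05, adjusted p = 0.0858). The number of genes called between tissues depended on the scaling. With total counts in place of TMM the median of all genes moved to -1.25 for liver minus adipose tissue. For adipose tissue minus muscle it moved to 1.40. Of the members, 4 were then higher and 34 lower in liver than in adipose tissue, and 36 higher and 1 lower in adipose tissue than in muscle. MITF (0.27) and LAMP2 (0.73) were among those that changed sign in adipose tissue minus muscle. NPC1 then stood at -1.15 for liver minus adipose tissue and at 1.37 for adipose tissue minus muscle. Set against the median gene, 28 of 37 members stood above it in liver minus muscle, 19 of 38 in liver minus adipose tissue and 25 of 37 in adipose tissue minus muscle.

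**Figure D1:**
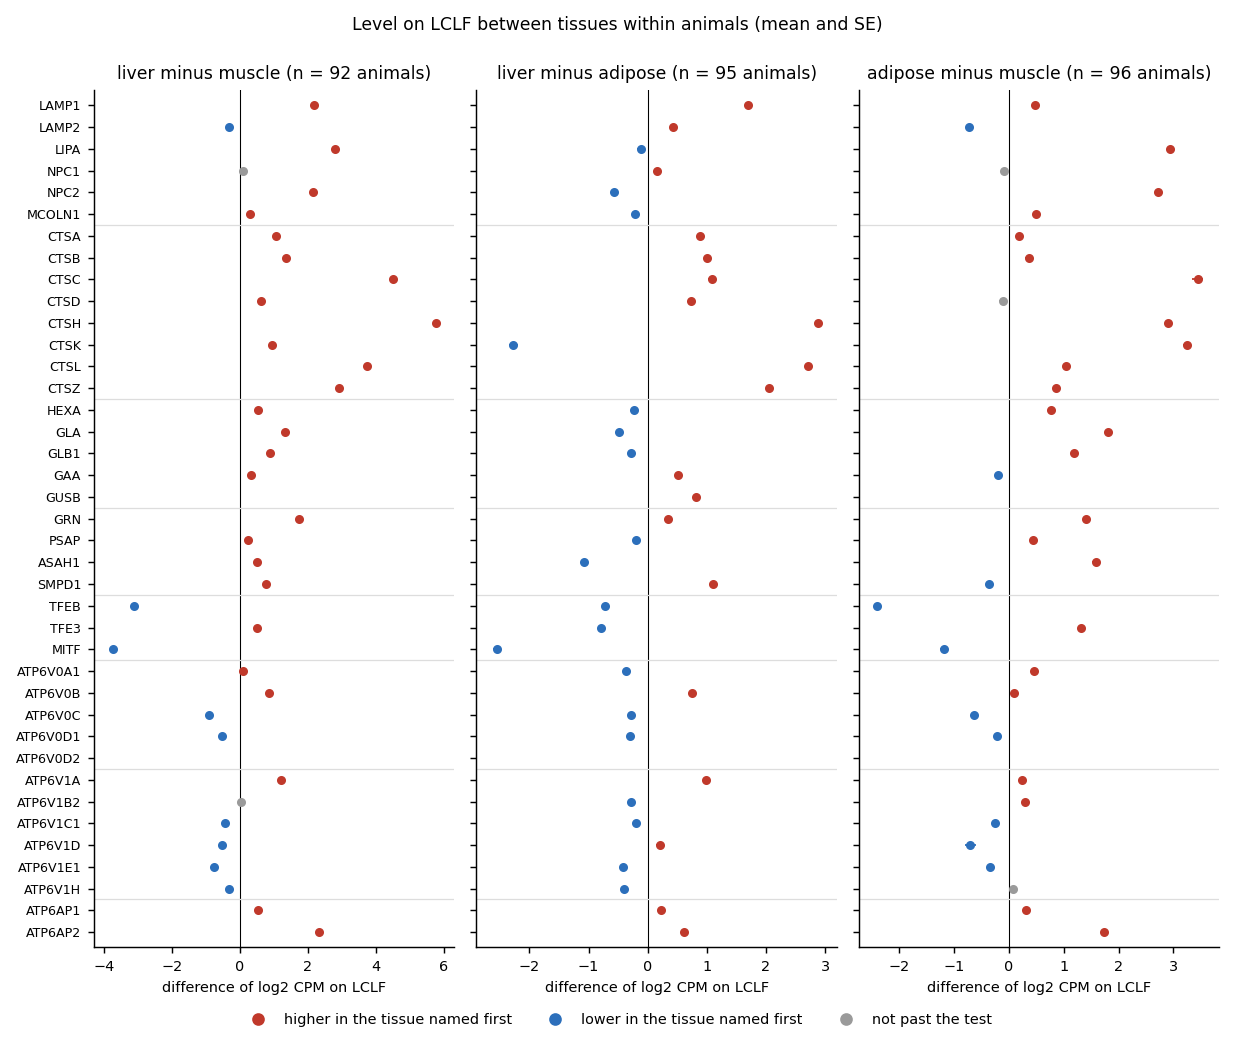
Difference of log2 CPM between tissues of the same animal on LCLF for each lysosome and V-ATPase gene (points, mean; bars, SE), with liver minus muscle on the left, liver minus adipose tissue in the middle and adipose tissue minus muscle on the right; the x axes differ in range. Red points are higher and blue points lower in the tissue named first at an adjusted p under 0.05. CTSH stands at 5.77 in liver minus muscle, and with the TMM scaling shown TFEB and MITF lie left of 0 in all 3 panels.

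After the HCHF diet more members were higher than lower in liver and in adipose tissue. In liver 17 of 38 members tested were higher and 2 lower, beside 22.3% higher and 27.1% lower of 14919 genes (edgeR quasi-likelihood test within animals, Benjamini-Hochberg adjusted p under 0.05). In adipose tissue 23 of 38 were higher and 3 lower, beside 18.7% and 19.9% of 16827 genes. In muscle 5 of 37 were higher and 3 lower, beside 6.65% and 7.91% of 13621 genes. The changes were small: the members ran between -0.20 and 0.46 log2 fold change in liver, -0.15 and 0.20 in muscle, and -0.22 and 0.34 in adipose tissue. Their medians were 0.03, 0.04 and 0.11, beside -0.03, 0.00 and -0.00 over all genes. Within one animal a median of 22 of 38 members were higher in the HCHF than in the LCLF library of liver, 19 of 37 in muscle and 23 of 38 in adipose tissue, beside a median of 49.7%, 49.4% and 49.8% of all genes. ATP6V0D2 was not tested in any tissue and GUSB was not tested in muscle, because their counts were too low. In batch 2 alone (limma-voom) 14 members were higher and 3 lower in liver (21.1% and 26.3% of all genes), 4 and 3 in muscle (5.56% and 4.91%), and 22 and 3 in adipose tissue (17.3% and 19.3%). In batch 1 alone 5 were higher and 0 lower in liver (4.75% and 2.18% of all genes) and none was called in muscle or adipose tissue, where 0.106% and 0% of all genes were called higher and 2 members of muscle were higher and, of adipose tissue, 1 was higher and 2 lower at an unadjusted p under 0.05. Without the animals in doubt, a choice made after seeing the data, the counts were 17 and 3 in liver (22.6% and 22.8% of all genes), 5 and 3 in muscle (6.4% and 7.13%), and 22 and 3 in adipose tissue (15.9% and 17.8%).

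**Figure D2:**
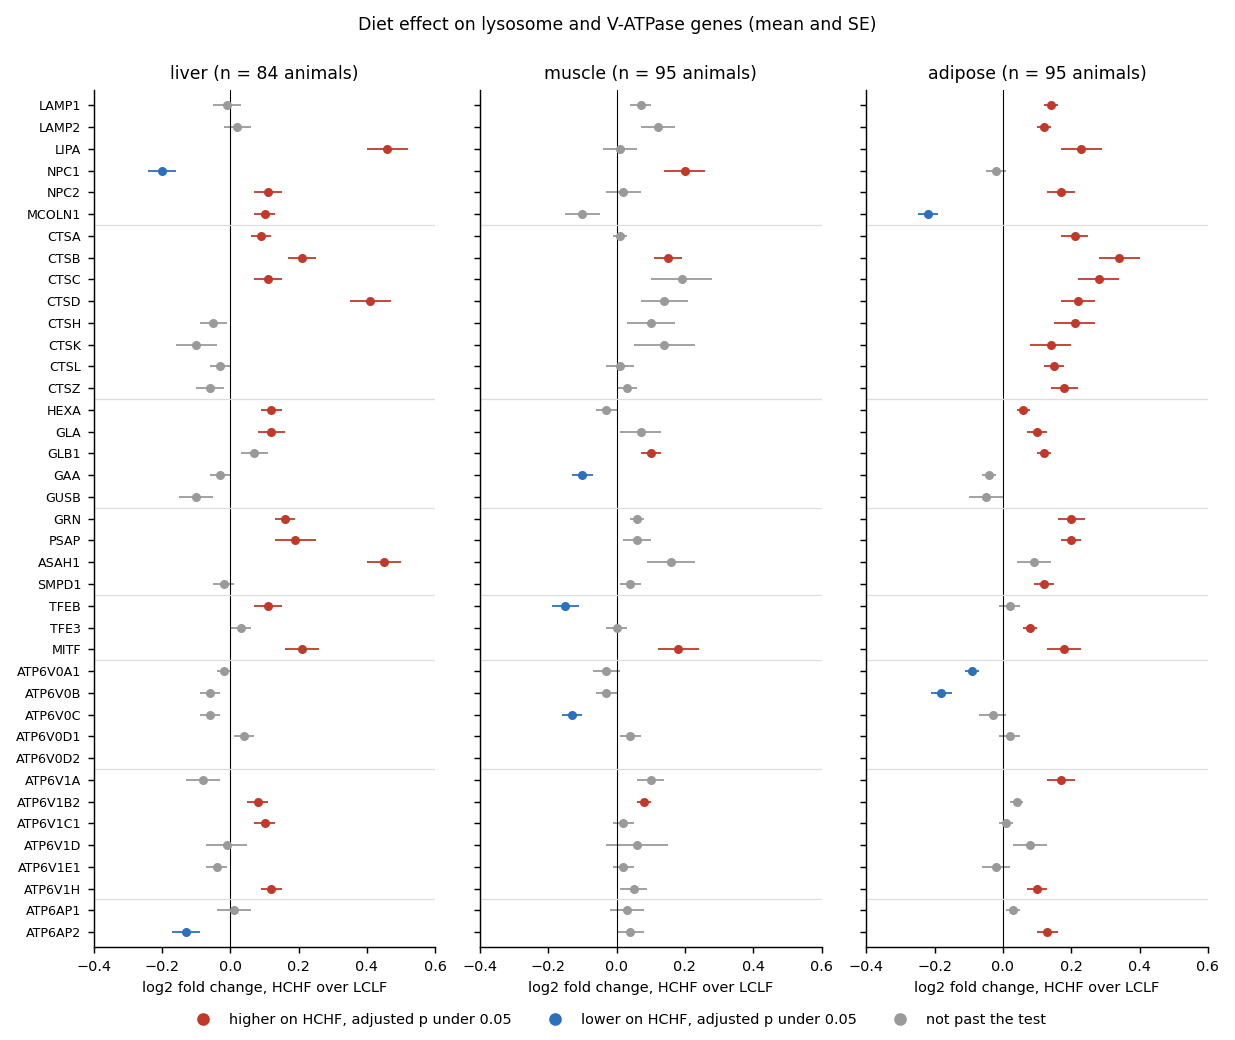
Log2 fold change, HCHF over LCLF, of each lysosome and V-ATPase gene (points, estimate; bars, SE) in liver (84 animals), muscle (95) and adipose tissue (95), with grey lines between the functional groups. Red points were higher and blue points lower on HCHF at an adjusted p under 0.05. LIPA, CTSD and ASAH1 stand apart in liver at 0.41 to 0.46, and all 8 cathepsins are red in adipose tissue.

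In liver the largest rises were those of LIPA, ASAH1 and CTSD, the main aspartic protease of lysosomes. LIPA had 24.6, 77.8 and 155 CPM (lowest, median and highest) in the 87 HCHF libraries, against 30.5, 55.4 and 114 CPM in the 95 LCLF libraries. The ranges overlapped, but the HCHF library was higher in 70 of 84 animals and the log2 fold change was 0.46 ± 0.06 (SE; edgeR adjusted p = 3.09e-10), with 0.62 in batch 1 and 0.42 in batch 2. ASAH1, which cleaves ceramide, had 21.1, 77 and 137 CPM in HCHF libraries, against 25.2, 55.2 and 110 CPM in LCLF libraries. It was also higher in 70 of 84 animals, by 0.45 ± 0.05 (adjusted p = 2.13e-13). CTSD had 92.9, 622 and 1030 CPM in HCHF libraries, against 181, 436 and 856 CPM in LCLF libraries. Although the lowest library of all was an HCHF one, CTSD was higher in 71 of 84 animals, by 0.41 ± 0.06 (adjusted p = 7.17e-08). CTSB, a cysteine protease, had 252, 776 and 1140 CPM in HCHF libraries, against 334, 651 and 1030 CPM in LCLF libraries, a rise of 0.21 ± 0.04 in 69 of 84 animals (adjusted p = 8.60e-06).

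By role, 4 of 8 cathepsins rose in liver and the other 4 (CTSH, CTSK, CTSL and CTSZ, all between -0.10 and -0.03) did not pass the test. Of the sphingolipid group, ASAH1, PSAP, the precursor of the saposins that present lipids to hydrolases (0.19 ± 0.06), and GRN, the precursor of the lysosomal granulins (0.16 ± 0.03), rose, while SMPD1, the acid sphingomyelinase, stood at -0.02 ± 0.03. HEXA, a subunit of hexosaminidase, and GLA, the alpha-galactosidase, rose by 0.12 each. GLB1, the beta-galactosidase (0.07 ± 0.04), GAA, the acid glucosidase of glycogen (-0.03 ± 0.03), and GUSB, the beta-glucuronidase (-0.10 ± 0.05), did not pass. Among the transcription factors MITF rose (0.21 ± 0.05) and TFEB rose by 0.11 ± 0.04 (5.63, 14 and 27.7 CPM in HCHF libraries, against 7.36, 13 and 21.5 CPM in LCLF libraries; adjusted p = 0.0293). The cholesterol exporters moved apart. NPC2, the soluble carrier, rose by 0.11 ± 0.04, while NPC1, the membrane protein that takes cholesterol from it, had 10.3, 17.5 and 41.6 CPM in HCHF libraries, against 8.52, 21.4 and 37.7 CPM in LCLF libraries. NPC1 fell by 0.20 ± 0.04 on the log2 scale (adjusted p = 5.10e-05) and was lower in 55 of 84 animals, although the highest single library was an HCHF one.

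The 2 abundant membrane glycoproteins did not pass the test in liver. LAMP1 had 152, 465 and 672 CPM in HCHF libraries, against 259, 456 and 595 CPM in LCLF libraries, a difference of -0.01 ± 0.04 (adjusted p = 0.839), and was higher in 43 of 84 animals. LAMP2 was at 0.02 ± 0.04. Of the 12 V-ATPase genes tested, 3 V1 subunits rose by 0.08 to 0.12 (ATP6V1B2, ATP6V1C1 and ATP6V1H) and 1 accessory gene fell. That gene, ATP6AP2, the prorenin receptor, had 15.6, 40.8 and 66.8 CPM in HCHF libraries, against 27.1, 42.3 and 77.4 CPM in LCLF libraries, a change of -0.13 ± 0.04 (adjusted p = 0.0026). The V0 subunit ATP6V0D1 had 27.7, 40 and 58.5 CPM in HCHF libraries, against 29.3, 39.5 and 59.3 CPM in LCLF libraries (0.04 ± 0.03, adjusted p = 0.242).

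By the median log2 fold change of single genes, macrophage markers (1.25) changed more than the members (0.03) in liver. Their summed share of counts is a separate measure, carried by the most abundant markers, and was not compared with the members. CD68 had 2.64, 15.1 and 51.2 CPM in HCHF libraries, against 0.685, 5.03 and 29.7 CPM in LCLF libraries, and rose by 1.49 ± 0.11. Of 12 other macrophage markers tested, 11 were higher, with a summed share of counts of 0.0518 to 0.198% (median 0.108%) in HCHF and 0.0256 to 0.145% (median 0.0842%) in LCLF libraries. All 11 endothelial, all 9 fibroblast and all 11 tested T and NK cell markers were higher as well, and 6 of 10 hepatocyte markers were lower. All 4 neutrophil markers tested were higher (median log2 fold change 1.49, beside 1.25 for the macrophage markers) and so were both erythroid markers (1.11). The summed neutrophil share was 0.000202 to 0.00651% in HCHF and 7.02e-05 to 0.00251% in LCLF libraries, and the erythroid share 0.000575 to 0.179% in HCHF and 0.000411 to 0.0327% in LCLF libraries. In bulk tissue fewer cells of a type and less RNA per cell cannot be told apart, and the part of these cells in the members' changes was not tested directly. With the change of CD68 as a covariate (limma), the members' value at a CD68 change of 0 passed the test for 1 of 38 members. That was ASAH1 (0.31, adjusted p = 0.0322), beside 1.01% of all genes higher and 0.912% lower. LIPA stood at 0.05 (adjusted p = 0.814). CD68 rose in most animals, so a change of 0 lies near the edge of the data, where the error is larger. Whether CD68 accounts for the rise of LIPA was not tested.

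In adipose tissue the rise took in all 8 cathepsins, by 0.14 to 0.34. CTSB had 421, 958 and 3980 CPM in HCHF libraries, against 404, 783 and 1610 CPM in LCLF libraries, and rose by 0.34 ± 0.06 (adjusted p = 1.08e-06). The ranges of the diets overlapped, and the HCHF library was higher in 70 of 95 animals. CTSC had 44.1, 90.9 and 229 CPM in HCHF libraries, against 28.5, 76.8 and 258 CPM in LCLF libraries, a rise of 0.28 ± 0.06 in 66 of 95 animals (adjusted p = 0.000202). LIPA had 64.1, 163 and 1320 CPM in HCHF libraries, against 72.4, 143 and 589 CPM in LCLF libraries, a rise of 0.23 ± 0.06 in 63 animals (adjusted p = 0.000867). CTSD had 296, 718 and 2290 CPM in HCHF libraries, against 375, 607 and 1230 CPM in LCLF libraries, a rise of 0.22 ± 0.05 in 63 animals (adjusted p = 0.00018). For these 3 genes too the diets overlapped over nearly the whole range of libraries.

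Other adipose members rose by less. LAMP1 had 261, 364 and 623 CPM in HCHF libraries, against 247, 327 and 423 CPM in LCLF libraries (0.14 ± 0.02, adjusted p = 1.26e-06), and LAMP2 (0.12 ± 0.02) and NPC2 (0.17 ± 0.04) rose with it. GRN and PSAP rose by 0.20 each and SMPD1 by 0.12 ± 0.03, and 3 of 5 glycosidases (HEXA, GLA and GLB1) rose by 0.06 to 0.12. ASAH1, a leading gene in liver, was at 0.09 ± 0.05 in adipose tissue (adjusted p = 0.152). NPC1 had 25.2, 44.5 and 78.2 CPM in HCHF libraries, against 26.4, 45.3 and 66 CPM in LCLF libraries (-0.02 ± 0.03, adjusted p = 0.679). TFEB had 32, 52.5 and 73.2 CPM in HCHF libraries, against 32.7, 50.7 and 75.7 CPM in LCLF libraries (0.02 ± 0.03, adjusted p = 0.534), while TFE3 (0.08 ± 0.02) and MITF (0.18 ± 0.05) rose.

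In adipose tissue MCOLN1, ATP6V0B and ATP6V0A1 fell. MCOLN1, the calcium channel of the lysosome, had 28.2, 45.5 and 97.8 CPM in HCHF libraries, against 32.8, 51.7 and 123 CPM in LCLF libraries, and changed by -0.22 ± 0.03 (adjusted p = 2.21e-07), lower in 73 of 95 animals. ATP6V0B, a proteolipid of the V0 ring, had 45.1, 70.6 and 132 CPM in HCHF libraries, against 57, 80.2 and 112 CPM in LCLF libraries, a change of -0.18 ± 0.03, lower in 74 of 95 animals (adjusted p = 3.17e-08). ATP6V0A1, the V0 subunit that forms the proton path, had 94.5, 132 and 190 CPM in HCHF libraries, against 109, 139 and 184 CPM in LCLF libraries, a change of -0.09 ± 0.02 (adjusted p = 0.000254). The remaining V0 subunits tested, ATP6V0C (-0.03 ± 0.04) and ATP6V0D1 (71, 117 and 223 CPM in HCHF libraries, against 77.7, 111 and 232 CPM in LCLF libraries, 0.02 ± 0.03), did not pass, whereas ATP6V1A and ATP6V1H of V1 (0.17 ± 0.04 and 0.10 ± 0.03) and ATP6AP2 (0.13 ± 0.03) rose.

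Macrophage genes were higher in adipose tissue as well, with CD68 at 11.7, 77.3 and 484 CPM in HCHF libraries, against 5.31, 44.3 and 192 CPM in LCLF libraries (0.78 ± 0.13). Of 12 macrophage markers 11 were higher, and their summed share was 0.0276 to 0.311% (median 0.118%) in HCHF and 0.00951 to 0.318% (median 0.0889%) in LCLF libraries. Fibroblast markers were higher for 8 of 9 genes and endothelial markers lower for 6 of 11. All 4 neutrophil markers tested (median log2 fold change 0.61) and all 3 erythroid markers (0.95) were higher too, beside a median of 0.52 for the macrophage markers. The summed neutrophil share was 0.0005 to 0.065% in HCHF and 0.000201 to 0.0233% in LCLF libraries, and the erythroid share 0.0125 to 3.06% in HCHF and 0.00972 to 0.735% in LCLF libraries; their part in the members' rise was not tested. At a CD68 change of 0, 10 of 38 members were higher and 3 lower, beside 12.7% and 12.5% of all genes, among them CTSD (0.24, adjusted p = 0.00137), LAMP1 (0.09) and ATP6V1A (0.16), and the 3 that fell (MCOLN1 -0.15, ATP6V0B -0.16 and ATP6V0A1 -0.10). CTSC (-0.05), CTSH (-0.06), GRN (-0.01), GLA (-0.02) and NPC2 (-0.02) were then on the other side of 0, without passing the test.

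Of the 8 members called in muscle, ATP6V0C and GAA were called in no other tissue. NPC1 had 8.63, 19.7 and 424 CPM in HCHF libraries, against 8.48, 17.3 and 81 CPM in LCLF libraries, a rise of 0.20 ± 0.06 in 62 of 95 animals (adjusted p = 0.0152). MITF had 10.6, 41.7 and 346 CPM in HCHF libraries, against 8.57, 36.8 and 73.5 CPM in LCLF libraries (0.18 ± 0.06, adjusted p = 0.0262), and CTSB 69.1, 262 and 418 CPM in HCHF libraries, against 70.7, 234 and 499 CPM in LCLF libraries (0.15 ± 0.04, adjusted p = 0.0117). The highest value of both NPC1 and MITF came from the same HCHF library, and all other ranges overlapped. GLB1 had 6.87, 15.6 and 24 CPM in HCHF libraries, against 7.03, 14.6 and 21.5 CPM in LCLF libraries (0.10 ± 0.03, adjusted p = 0.0237), and ATP6V1B2 rose by 0.08 ± 0.02.

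TFEB fell in muscle, the tissue where its level was highest. It had 61.2, 87.6 and 148 CPM in HCHF libraries, against 64.5, 100 and 155 CPM in LCLF libraries, a change of -0.15 ± 0.04 (adjusted p = 0.00214), and was lower in 62 of 95 animals with largely overlapping ranges. ATP6V0C had 48.5, 93.8 and 172 CPM in HCHF libraries, against 44.5, 103 and 181 CPM in LCLF libraries (-0.13 ± 0.03, adjusted p = 0.00687). GAA, whose loss causes the muscle glycogen storage disease of Pompe, had 32.6, 48.7 and 78 CPM in HCHF libraries, against 35.8, 52 and 81.5 CPM in LCLF libraries (-0.10 ± 0.03, adjusted p = 0.00417). LIPA (3.12, 6.92 and 21.7 CPM in HCHF libraries, against 3.68, 6.95 and 13 CPM in LCLF libraries) did not pass the test (0.01 ± 0.05). Nor did LAMP1 (50.6, 96.1 and 155 CPM in HCHF libraries, against 47.9, 91.9 and 132 CPM in LCLF libraries; 0.07 ± 0.03), CTSD (41.8, 288 and 606 CPM in HCHF libraries, against 36.4, 273 and 513 CPM in LCLF libraries; 0.14 ± 0.07) or ATP6V0D1 (33.3, 49 and 110 CPM in HCHF libraries, against 36.3, 48.6 and 69.1 CPM in LCLF libraries; 0.04 ± 0.03). Of 9 macrophage markers tested in muscle 5 were higher, with a summed share of 0.000533 to 0.0246% (median 0.00223%) in HCHF and 0.000582 to 0.00896% (median 0.00158%) in LCLF libraries, and CD68 rose by 0.42 ± 0.11. Endothelial markers were lower for 8 of 11 genes and myocyte markers for 6 of 11, and their part in the members' changes was not tested.

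**Figure D3:**
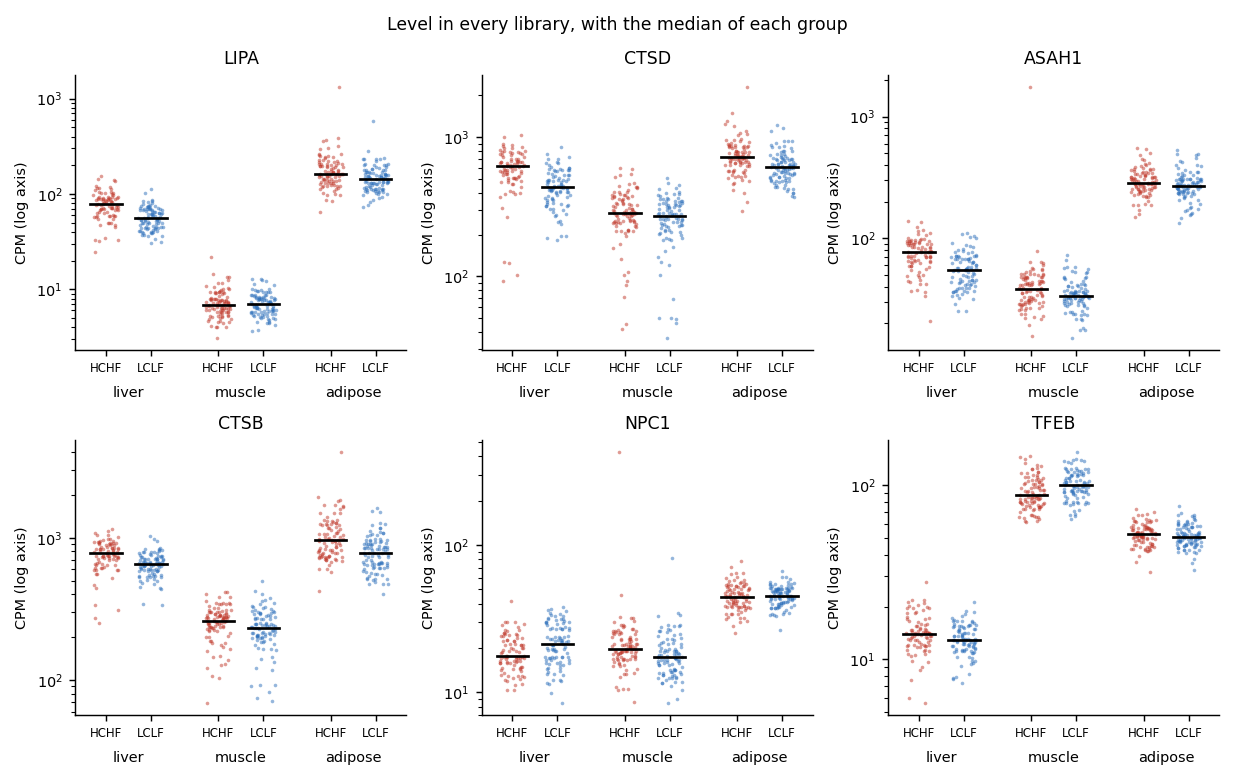
CPM on a log axis of LIPA, CTSD, ASAH1, CTSB, NPC1 and TFEB in every library of liver, muscle and adipose tissue, HCHF (red) left of LCLF (blue); each point is 1 library and black lines are medians. The diets overlap in every panel: the medians of LIPA in liver are 77.8 CPM on HCHF and 55.4 CPM on LCLF, and single HCHF libraries stand far above the rest for ASAH1 and NPC1 in muscle and for LIPA and CTSB in adipose tissue.

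Single HCHF libraries stood far above all others for several members. These genes were chosen after their values were seen. In muscle 1 HCHF library of batch 1 held the highest value of 12 members, among them ASAH1 at 1750 CPM, where the next library had 77.8 CPM and the median of the others was 35.3 CPM. The same library had 424 CPM of NPC1 (next 81), 346 CPM of MITF (next 73.7), 144 CPM of CTSL (next 85.1) and 25.2 CPM of CD68 (next 5.53). Without that animal NPC1 rose by 0.17 and MITF by 0.16 in muscle, both still past the test, and MCOLN1 passed it at -0.12 (edgeR adjusted p = 0.0401). In adipose tissue 1 HCHF library of batch 2 held the highest value of 14 members, among them LIPA at 1320 CPM (next 589), CTSB at 3980 (next 1930), CTSD at 2290 (next 1490) and CTSA at 732 (next 438), with 484 CPM of CD68 (next 252). Without that animal LIPA rose by 0.21, CTSB by 0.32 and CTSD by 0.21 in adipose tissue, and CTSK (0.13, adjusted p = 0.0515) no longer passed.

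ATP6V0D2, the V0 subunit of osteoclasts and some macrophages, was too low to test. In adipose tissue its raw counts had a lowest, median and highest value of 0, 3 and 529 in HCHF libraries, against 0, 1 and 27 in LCLF libraries. The 529 counts (24.2 CPM) came from the adipose library just described, and 19 of 95 HCHF and 37 of 99 LCLF libraries had no count. In liver the gene had 0, 4 and 27 counts in HCHF libraries, against 0, 2 and 26 in LCLF libraries, and in muscle 82 of 98 HCHF and 89 of 96 LCLF libraries had no count. No fold change is given at these counts.

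Across tissues, CTSB and MITF were the 2 members higher on HCHF in all 3 tissues. A further 12 were higher in 2 tissues. GLB1 was so in muscle and adipose tissue, ATP6V1B2 in liver and muscle, and the others (LIPA, NPC2, CTSA, CTSC, CTSD, HEXA, GLA, GRN, PSAP and ATP6V1H) in liver and adipose tissue. Of the 18016 genes tested in 1 or more tissues, 0.788% were higher in all 3 and 6.83% in 2. NPC1, MCOLN1, TFEB and ATP6AP2 were higher in 1 tissue and lower in another, as were 6.21% of all genes. No call was made in any tissue for GUSB, ATP6V0D1, ATP6V0D2, ATP6V1D, ATP6V1E1 and ATP6AP1, of which 5 belong to the V-ATPase, and 36.6% of all genes had no call.

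Whether a member responded differently in 2 tissues was tested with limma, comparing the changes of animals that had both diets sampled in both tissues. Between liver and muscle (80 animals), 7 of 37 members changed more upward and 3 more downward in liver, beside 16.7% and 16.4% of all genes. LIPA differed by 0.43 ± 0.08 (adjusted p = 1.23e-05), with 0.46 in liver and 0.01 in muscle, CTSD by 0.29 ± 0.09 and ASAH1 by 0.27 ± 0.10. On the other side NPC1 differed by -0.40 ± 0.06 (adjusted p = 2.65e-07), with -0.20 in liver and 0.20 in muscle, and 18 of 80 animals had the larger change in liver. ATP6AP2 (-0.16 ± 0.05) and ATP6V1A (-0.15 ± 0.05) also changed more downward in liver.

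Between liver and adipose tissue (82 animals), 5 of 38 members changed more upward and 10 more downward in liver, beside 20.6% and 17.2% of all genes. ASAH1 differed by 0.34 ± 0.07 (adjusted p = 2.04e-05), MCOLN1 by 0.33 ± 0.05 (adjusted p = 2.08e-08), with 0.10 in liver and -0.22 in adipose tissue, and LIPA by 0.26 ± 0.08. The 10 included the cathepsins CTSK (-0.34 ± 0.08), CTSH (-0.24 ± 0.08), CTSZ and CTSL, and the V-ATPase genes ATP6AP2 (-0.28 ± 0.04, adjusted p = 3.19e-07) and ATP6V1A. Between adipose tissue and muscle (91 animals), 4 of 37 members changed more upward and 2 more downward in adipose tissue, beside 5.84% and 7.14% of all genes. TFEB (0.19 ± 0.04, adjusted p = 0.000396), CTSA, the carboxypeptidase that protects GLB1 (0.18 ± 0.05), and CTSZ (0.14 ± 0.04) were the largest upward, and NPC1 (-0.22 ± 0.06) and ATP6V0B (-0.13 ± 0.03) were downward.

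Other genes of the pathway were counted by list. Of all genes tested, 22.3% were higher and 27.1% lower in liver, 6.65% and 7.91% in muscle, and 18.7% and 19.9% in adipose tissue. A count near these shares is no result about a list. Of 9 other lysosomal proteases, 5 rose and 1 fell in liver, with CTSS, a cathepsin of antigen-presenting cells (0.93), and CTSW of cytotoxic lymphocytes (0.63) the largest, and CTSF (-0.19) the one that fell. In adipose tissue 6 of 9 rose, led by CTSS (0.54) and the legumain gene LGMN (0.38), and in muscle 2 of 7, LGMN and SCPEP1 (0.14 each). Of the other hydrolases, 9 of 23 rose and 3 fell in liver, 2 of 22 rose and 1 fell in muscle, and 12 of 23 rose and 2 fell in adipose tissue. GM2A, the activator of ganglioside breakdown, was the largest rise of that list in liver (0.80), muscle (0.21) and adipose tissue (0.30), and HYAL1, a hyaluronidase, fell in all 3 (-0.15, -0.15 and -0.06).

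The 12 other V-ATPase subunits gave 2 rises and 1 fall of 6 tested in liver, led by TCIRG1, the V0 subunit of osteoclasts and immune cells (0.48), 2 falls of 7 in muscle (ATP6V1F at -0.17 and ATP6V1G1 at -0.07) and 2 falls of 8 in adipose tissue (ATP6V1B1 at -0.25 and ATP6V0A2 at -0.19). Genes of the lysosomal membrane and of sorting to it rose for 4 and fell for 8 of 22 in liver, fell for 4 of 22 in muscle, and rose for 7 and fell for 6 of 22 in adipose tissue. LAPTM5, a membrane protein of blood cells, was the largest rise in liver (1.04), and SORT1, the sorting receptor sortilin, fell in liver (-0.08), muscle (-0.16) and adipose tissue (-0.32). Of 14 genes by which mTORC1 controls TFEB, 2 rose and 4 fell in liver (RRAGD 0.61, FNIP2 -0.21), 2 rose and 2 fell in muscle (LAMTOR3 0.14, RRAGB -0.12), and 1 rose and 2 fell in adipose tissue (FNIP2 0.07, FLCN -0.10). Of 13 autophagy genes 3 rose and 5 fell in liver (SQSTM1 0.15, ULK1 -0.29), and 1 rose and 1 fell in muscle. In adipose tissue 2 rose and 4 fell, with SQSTM1 at -0.17. All these counts stand beside 22.3% of all genes higher and 27.1% lower in liver. The shares were 6.65% and 7.91% in muscle, and 18.7% and 19.9% in adipose tissue.

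The members' changes were related to each other across animals, as described by Pearson's r of the within-animal change over 703 pairs of members in liver and adipose tissue and 666 in muscle. The median r was 0.26 in liver (84 animals), 0.12 in muscle (95) and 0.18 in adipose tissue (95), beside -0.00 over all pairs of genes in each tissue. The pairs share libraries, and the r has no test here. The closest pairs were GLB1 with PSAP in liver (0.91), CTSD with PSAP in muscle (0.83) and CTSB with GRN in adipose tissue (0.88). CTSD was also close to the V-ATPase accessory gene ATP6AP1 in liver (0.87) and muscle (0.81). The 8 cathepsins had a median r of 0.41, 0.17 and 0.51 among themselves in liver, muscle and adipose tissue. The 6 V1 subunits had 0.43, 0.41 and 0.30, and cathepsins against V-ATPase genes 0.28, 0.07 and 0.15. The lowest pairs were CTSK with ATP6V1A in liver (-0.58), LAMP2 with ATP6V0A1 in muscle (-0.44) and NPC2 with ATP6V1E1 in adipose tissue (-0.59).

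The relation of each member to CD68 was tested across animals by a 2-sided permutation test (100000 permutations) of Pearson's r between within-animal changes of log2 CPM, for every gene of each tissue, with Benjamini-Hochberg adjustment over all of them. The smallest p that these permutations can give is 1e-05. In adipose tissue 20 of 38 members were positively and 3 negatively related to the change of CD68, beside 21.7% and 23.5% of all genes. CTSB had r = 0.87 and Spearman's rho = 0.89 (n = 95 animals; permutation p = 1e-05 for both, adjusted p = 7.67e-05 for r). It was 0.93 in batch 1, 0.86 in batch 2 and 0.87 without the 2 animals farthest from the median of CD68. GRN (r = 0.85, rho = 0.86), CTSC (0.83 and 0.84) and CTSH (0.76 and 0.72) followed at the same p, with r of 0.84, 0.88 and 0.64 in batch 1 and 0.86, 0.82 and 0.80 in batch 2. Without the 2 farthest animals their r was 0.84, 0.80 and 0.72.

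Of the 8 cathepsins 7 were positively related in adipose tissue, with a median r of 0.70, and the exception was CTSD, which rose on HCHF with r = -0.05 (rho = -0.11, adjusted p = 0.713). In the same test all 9 adipocyte markers (median r -0.42) and 7 of 11 endothelial markers were negatively related to the change of CD68, and all 11 T and NK cell markers tested (0.54) and all 4 neutrophil markers (0.68) positively. The part of these cells in the members' relations was not tested. The 12 V-ATPase genes had a median r of 0.01, 2 positive (ATP6V1B2 at 0.54 and ATP6AP2 at 0.30) and 2 negative. ATP6V1E1, a stalk subunit of V1, had r = -0.41 and rho = -0.33 (permutation p = 3.00e-05 and 0.00127, adjusted p = 0.000184 and 0.00511; -0.34 in batch 1, -0.43 in batch 2 and -0.33 without the 2 farthest animals). ATP6V0C had r = -0.26 and rho = -0.22 (permutation p = 0.0123 and 0.0307, adjusted p = 0.0301 and 0.07), and MCOLN1 r = -0.30 and rho = -0.25 (p = 0.00331 and 0.0138, adjusted p = 0.01 and 0.0363). The relation of ATP6V0C was not called by rho, nor were those of CTSK (rho = 0.17), ASAH1 (0.18) and TFE3 (0.22), although each was called by r. LIPA had r = 0.42 and rho = 0.37 (adjusted p = 0.000132 and 0.00124), LAMP1 0.36 and 0.32 (0.00107 and 0.00657), and NPC1 (0.05), TFEB (-0.06) and ATP6V0D1 (-0.01) were not called. The fourth lowest, ATP6V1H, was at -0.14. Without the 12 animals in doubt 19 members were called positive and 1, ATP6V1E1, negative, and MCOLN1 and ATP6V0C were not called. With the mean log2 change of the other macrophage markers in place of that of CD68, 14 members were positive and 4 negative. No share of all genes is given for either alternative, so their counts are no result about the members.

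In liver 2 of 38 members were related to CD68, both positively, beside 8.06% of genes positive and 1.92% negative. LIPA had r = 0.49 and rho = 0.45 (n = 84 animals; permutation p = 2.00e-05 and 5.00e-05, adjusted p = 0.000533 and 0.00133), with 0.76 in batch 1, 0.51 in batch 2 and 0.46 without the 2 farthest animals. CTSB had r = 0.36 and rho = 0.35 (permutation p = 0.00101 and 0.00124, adjusted p = 0.0152 and 0.0177), with 0.48, 0.40 and 0.30. Without those 2 animals CTSB was not called. GLA (0.26) and CTSD (r = 0.25, adjusted p = 0.132; rho = 0.33, adjusted p = 0.0299) came next. The lowest were the V0 proteolipid gene ATP6V0B (-0.25), MCOLN1 (-0.17), GUSB (-0.12) and ATP6V0A1 (-0.11), none of which passed the test, and LAMP1 (-0.00), NPC1 (0.04), TFEB (0.08) and ATP6V0D1 (-0.02) did not either.

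In muscle 7 of 37 members were positively related to the change of CD68, beside 5.15% of genes positive and 7.29% negative, at CD68 levels near 1 CPM (medians 1.06 CPM in HCHF and 0.818 CPM in LCLF libraries). CTSH had r = 0.45 and rho = 0.41 (n = 95 animals; permutation p = 2.00e-05 and 3.00e-05, adjusted p = 0.00157 and 0.00355), with 0.50 in batch 1, 0.45 in batch 2 and 0.41 without the 2 farthest animals. Hepatocyte markers reached 2.86% of counts in the HCHF muscle library that held most of them (median 0.000727%). The part of such carry-over in the relation of CTSH was not tested. ATP6AP2 had r = 0.32 and rho = 0.32 (adjusted p = 0.0203 and 0.0318), with 0.34, 0.31 and 0.26. ATP6V0A1 and MCOLN1 had r = 0.40 each (permutation p = 0.00012, adjusted p = 0.00448), but rho of 0.21 and 0.25 (adjusted p = 0.177 and 0.102), and without the 2 farthest animals r was 0.21 and 0.26. Without those 2 animals 2 members were called, without the animal of the highest muscle library 4 (ATP6V0A1 0.26 and MCOLN1 0.28 were not), and rho called 3 members positive and 1 negative. With the mean log2 change of the other macrophage markers in place of that of CD68, 9 members were positive and 7 negative. Without the 4 animals in doubt 6 members were positive and 0 negative. No share of all genes is given for these alternatives, so their counts are no result about the members. The lowest were ATP6V0C (r = -0.24, adjusted p = 0.106; rho = -0.30, adjusted p = 0.0406), TFEB (-0.16), ATP6V1E1 (-0.11) and CTSB (-0.09), and LIPA (0.20), NPC1 (0.23), LAMP1 (0.13), CTSD (-0.03) and ATP6V0D1 (0.25) did not pass the test.

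**Figure D4:**
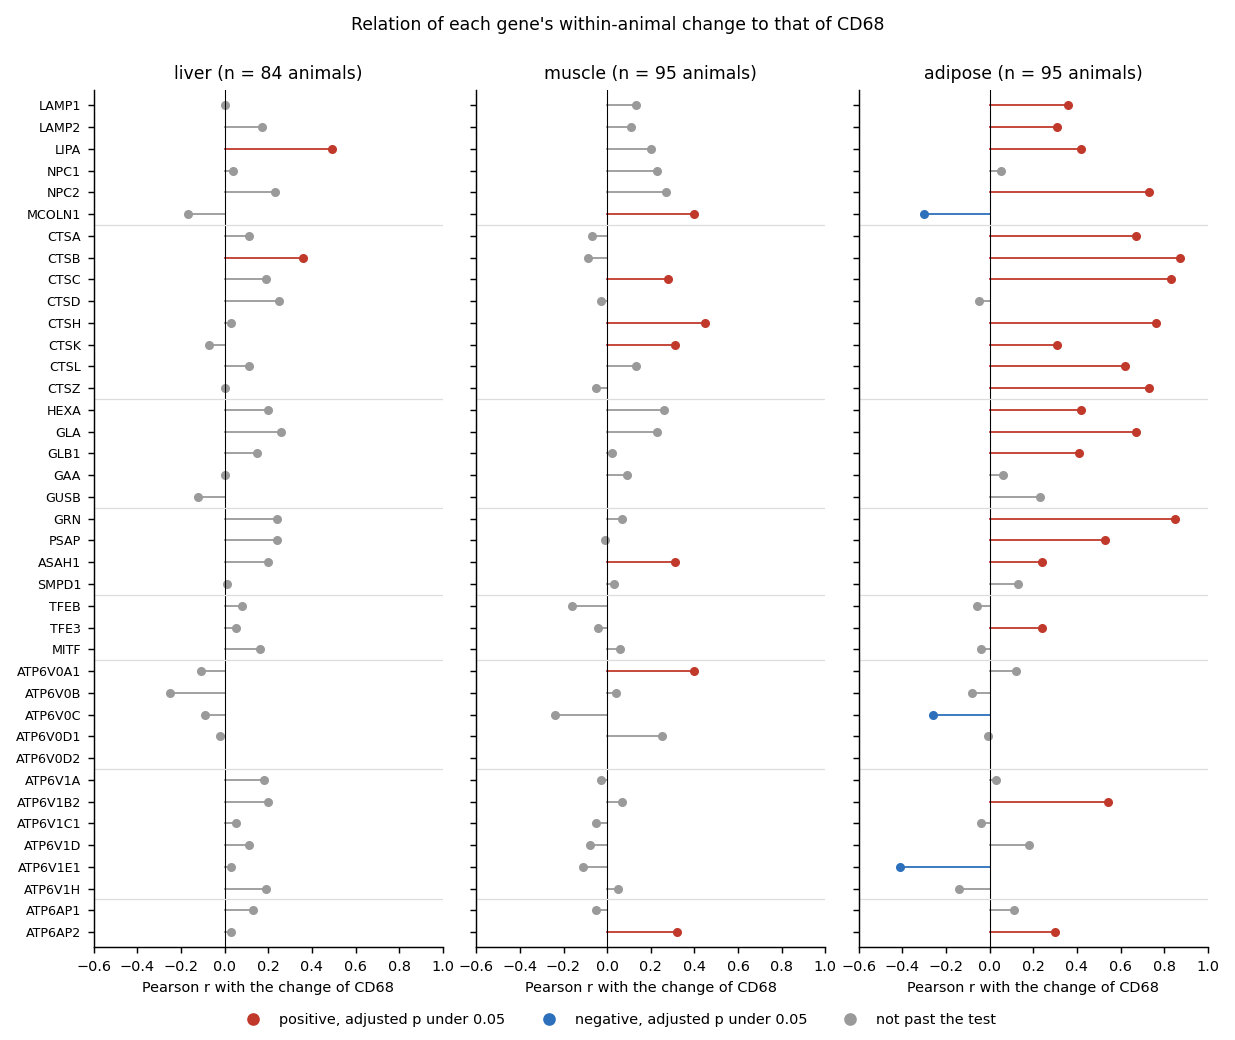
Pearson's r across animals between the within-animal change (HCHF minus LCLF, log2 CPM) of each lysosome and V-ATPase gene and that of CD68 in liver (84 animals), muscle (95) and adipose tissue (95). Red points were positive and blue points negative at an adjusted p under 0.05. In adipose tissue 7 of 8 cathepsins lie between 0.31 and 0.87 while the V-ATPase genes lie on both sides of 0.

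**Figure D5:**
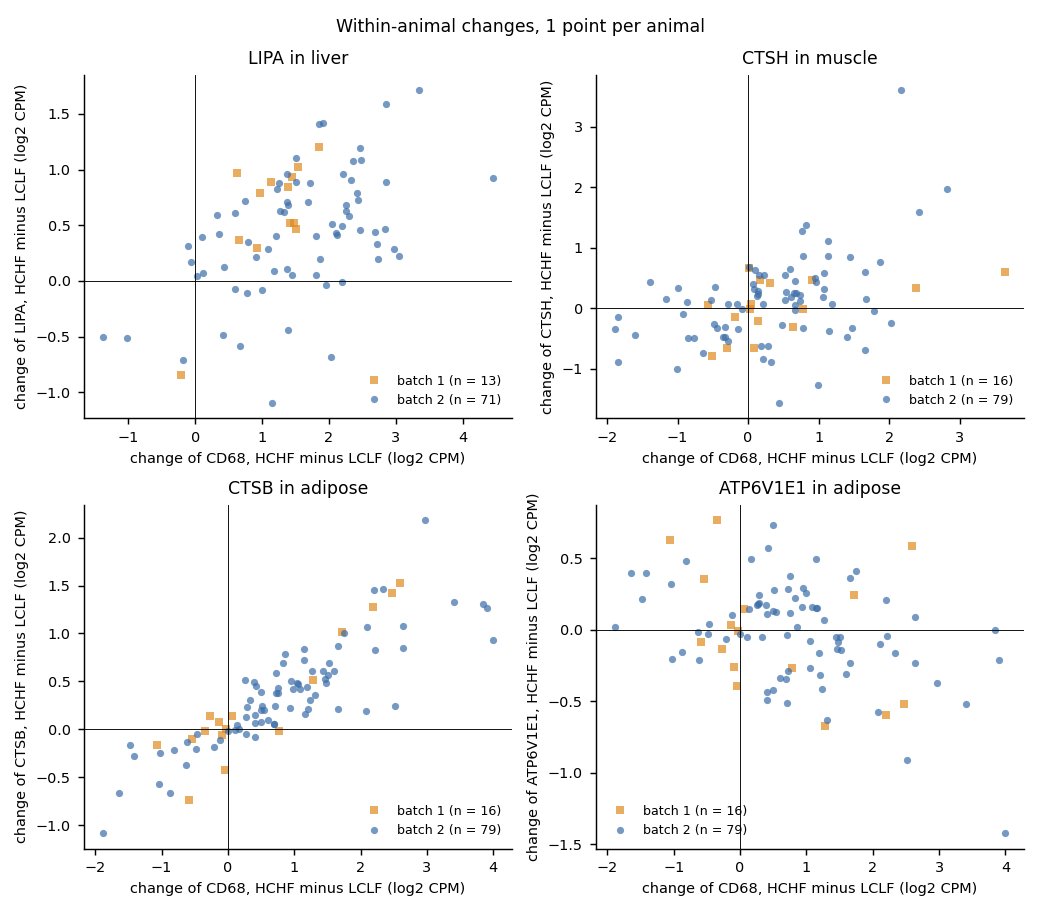
Within-animal change of LIPA in liver, CTSH in muscle, and CTSB and ATP6V1E1 in adipose tissue against the change of CD68 (both HCHF minus LCLF, log2 CPM), 1 point per animal, with batch 1 as orange squares and batch 2 as blue circles. CTSB in adipose tissue rises with CD68 along most of the range (r = 0.87), LIPA in liver more loosely (0.49), and ATP6V1E1 falls (-0.41).

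The relation to CD68 was also tested for levels within 1 diet, with batch means subtracted. On HCHF 21 of 38 members were positively related to CD68 in liver (beside 15.8% of genes), 13 of 37 in muscle (11.6%) and 26 of 38 in adipose tissue (16.2%), and 0 were negatively related in liver (11.7%), muscle (11.6%) and adipose tissue (15.5%). At an unadjusted p under 0.05, liver had 0 negative members, muscle 2 and adipose tissue 0 by the permutation test of r, and rho gave 0 negative calls per tissue after adjustment. On LCLF the counts were 6 positive and 1 negative in liver (8.8% and 5.47%), 0 and 0 in muscle (0.0954% and 0.0514%; 4 and 4 members at an unadjusted p under 0.05, and 0 and 0 by adjusted p of rho), and 12 and 6 in adipose tissue (22.9% and 23.8%). The muscle counts depended on the macrophage measure. With the mean log2 level of the other macrophage markers in place of CD68, 8 members were positive and 16 negative on LCLF. On HCHF 11 were positive and 7 negative. LIPA in liver had r = 0.77 and rho = 0.71 on HCHF (n = 87 animals; permutation p = 1e-05 for both, adjusted p = 0.000227 for r; 0.80 in batch 1 and 0.78 in batch 2), and r = 0.30 and rho = 0.30 on LCLF (n = 95; permutation p = 0.00286 and 0.00293, adjusted p = 0.0258 and 0.0261; 0.53 in batch 1 and 0.28 in batch 2). The difference between these 2 r was not tested. In adipose tissue ATP6V1E1 had r = -0.17 on HCHF (adjusted p = 0.2) and -0.41 on LCLF (adjusted p = 0.000114), and CTSB 0.84 on HCHF and 0.74 on LCLF (adjusted p = 0.000151 and 6.50e-05).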

How the data were processed

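Gene counts were analysed in biopsies of liver, skeletal muscle and adipose tissue, grouped by tissue and diet from the labels. Per the labels' protocols, RNA was extracted from frozen, homogenised tissue and sequenced in 2 batches, 16 animals with unstranded single-end and 83 with stranded paired-end reads of 50 bases, and all libraries of an animal shared a batch. The labels do not say which animals were in which batch, so animals were split by the first axis of their mean expression (23.3% of variance, gap 52.5 against 3.84 for the next), which gave 16 and 83. Per the submitters' processing notes, STAR 2.7.7a, FastQC and featureCounts were used. The build, the annotation, the strand setting and how libraries passed quality control were not given in the sources used here. Deposited by the authors were raw counts per gene, as whole numbers, for 588 libraries and for the 570 that passed their quality control, which were used. The 18 left out entered only an alternative. No 2 libraries were identical. RefSeq names of the Panubis1.0 assembly matched all 39 members and 33824 of 34178 genes, and no coordinates are given.

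The members, gene lists and tests were chosen with earlier results of these data known. The named genes are, per tissue, the 4 largest called rises and falls plus LAMP1, LIPA, NPC1, CTSD, TFEB, ATP6V0D1 and ATP6V0D2, the 3 largest tissue differences each way, and the 4 highest and lowest relations to CD68. The pathway lists give the 2 largest called changes each way, of which some are printed. Genes kept by filterByExpr (minimum count 10) were tested by edgeR 4.0.16 (quasi-likelihood, TMM, animal as a block, 1 common dispersion from 1000 genes, adjusted p under 0.05 by Benjamini-Hochberg), and the SE was derived from the F statistic. Tissue differences used limma 3.58.1 on log2 CPM (prior count 2). Relations to CD68 used 100000 permutations. Libraries of the same animal pair across diets: their deviations correlated with a median r of 0.513 (liver), 0.477 (muscle) and 0.497 (adipose tissue), above 0.1 for 84 of 84, 90 of 95 and 91 of 95 pairs. Alternatives included DESeq2 1.42.0. Both the edgeR fit and the permutations were tested on simulated data. The separate biopsies are 1 per animal, tissue and diet, and reads were counted without molecular identifiers, so CPM near 0 carries counting error. Software was R 4.3.3 and Python 3.11.15.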

Additional observations from a re-analysis of the deposited data

Results flagged for a closer look

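The HCHF effect differed between tissues for 31 pairs of a member and 2 tissues, by a limma test of the difference itself within animals (adjusted p under 0.05). That is 10 of 37 members for liver minus muscle (beside 16.7% of all genes more upward and 16.4% more downward), 15 of 38 for liver minus adipose tissue (20.6% and 17.2%) and 6 of 37 for adipose tissue minus muscle (5.84% and 7.14%). These counts lie near the share of all genes, so they are no result about the members as a list. All values are differences of log2 fold change with the tissue named first minus the second.

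Between liver and muscle the diet effect was more upward in liver for LIPA (0.43), CTSD (0.29), ASAH1 (0.27), TFEB (0.26), MCOLN1 (0.17), HEXA (0.13) and GRN (0.10). It was more downward in liver for NPC1 (-0.40), ATP6AP2 (-0.16) and ATP6V1A (-0.15). NPC1 and TFEB passed the diet test in both tissues with opposite signs.

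Between liver and adipose tissue it was more upward in liver for ASAH1 (0.34), MCOLN1 (0.33), LIPA (0.26), CTSD (0.21) and ATP6V0B (0.13). It was more downward in liver for CTSK (-0.34), ATP6AP2 (-0.28), CTSH (-0.24), CTSZ (-0.23), ATP6V1A (-0.23), CTSL (-0.18), NPC1 (-0.16), LAMP1 (-0.14), SMPD1 (-0.13) and LAMP2 (-0.11). MCOLN1 and ATP6AP2 passed the diet test in both tissues with opposite signs.

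Between adipose tissue and muscle it was more upward in adipose tissue for TFEB (0.19), CTSA (0.18), CTSZ (0.14) and ATP6V0C (0.12), and more downward for NPC1 (-0.22) and ATP6V0B (-0.13).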

How the results depend on the processing

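In batch 1 alone 5 members were higher and 0 lower in liver (10 and 0 at an unadjusted p under 0.05 by limma-voom), 0 and 0 in muscle (2 and 0) and 0 and 0 in adipose tissue (1 and 2), and 0, 0 and 6 members were positively and 0 negatively related to the change of CD68 in liver, muscle and adipose tissue (11, 14 and 17 positive at an unadjusted p under 0.05). In batch 2 alone the tissue differences had 2 members higher for liver minus adipose tissue and 1 lower for liver minus muscle, and relations to CD68 gave 3 positive in muscle (change), 7 positive in muscle (HCHF level) and 3 negative in adipose tissue (LCLF level). At a CD68 change of 0, 10 members were higher in adipose tissue, and 1 was higher and 0 lower in liver (2 and 3 at an unadjusted p under 0.05 by limma), where GLA (-0.02) and NPC2 (-0.01) changed sign, as did CTSC (-0.05), CTSH (-0.06), GLA (-0.02), GRN (-0.01) and NPC2 (-0.02) in adipose tissue. Without the replicate block, which drops the pairing of an animal's libraries, muscle had 2 members higher and 1 lower (edgeR), or 0 and 1 (DESeq2; 10 and 3 at an unadjusted p under 0.05). The tissue differences then had 2 higher and 1 lower for liver minus muscle, 2 and 6 for liver minus adipose tissue, and 1 and 0 for adipose tissue minus muscle (limma; 4 and 2 at an unadjusted p under 0.05). No share of all genes is given for the tissue differences and relations of these alternatives, so those counts are no result about the members.

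With all 588 libraries, adipose tissue minus muscle had 7 members higher and 1 lower. Relations to CD68 then had 16 positive and 9 negative (liver, change), 17 and 2 (liver, LCLF level), 8 negative (liver, HCHF level), 13 and 1 (muscle, change), 9 and 1 (muscle, LCLF level) and 1 negative (adipose tissue, HCHF level). In that table r changed sign in liver for GUSB (0.39), LAMP1 (0.48) and TFEB (-0.42) in the change. It did so for GUSB (0.40), MCOLN1 (0.23) and TFEB (-0.43) in the HCHF level, and for CTSH (0.36) and TFEB (-0.25) in the LCLF level. The 13 liver libraries left out by the authors held 0.000546 to 0.95% hepatocyte markers, against medians of 20.6% (HCHF) and 21.5% (LCLF) in those kept. Their part in these shifts was not tested. No share of all genes is given for these relations, so the counts are no result about the members. With Spearman's rho muscle had 3 positive and 1 negative (change) and 8 positive (HCHF level). With the mean log2 change or level of the other macrophage markers in place of CD68, muscle had 7 negative (change) and 7 negative (HCHF level). It had 8 positive and 16 negative for the LCLF level. Liver had 2 positive (LCLF level) and adipose tissue 16 positive (HCHF level). Without the 2 animals farthest in CD68 there were 1 (liver, change), 3 (liver, LCLF level), 2 (muscle, change) and 8 positive (muscle, HCHF level). Shares of all genes are not given for these alternatives either, so their counts too are no result about the members.

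With total counts only, 4 members were higher and 34 lower for liver against adipose tissue on LCLF. CTSA (-0.42), CTSB (-0.31) and CTSD (-0.57) were among those that changed sign there. For adipose tissue against muscle 36 were higher and 1 lower. LAMP2 (0.73), MITF (0.27), ATP6V0C (0.82) and GAA (1.27) were among those that changed sign in that comparison. Chosen after seeing the data, leaving out the animals in doubt left 1 negative relation in adipose tissue (change), and leaving out the animal of the highest library left 4 positive in muscle (change). In the diet effect those 2 alternatives gave 17 higher and 2 or 3 lower in liver, 5 higher and 3 or 4 lower in muscle, and 22 higher and 3 lower in adipose tissue. The cause of these shifts was not tested. The other 242 recomputed counts were within 1.5 times the value reported. Of single members 3005 values kept direction and call, 210 lost and 72 gained the call, and 17 changed sign. That tally left out sign changes of several levels with total counts only, such as those of CTSA, CTSB and CTSD. Depth limited ATP6V0D2 in all tissues and GUSB and CD68 in muscle. With over 80 animals per tissue, single replicates were not left out in turn.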
